A study of Mus musculus with 13 samples.

Results

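The 6 wild-type cell lines behind a study that asks how the JNK pathway bears on HER2-driven breast tumours are described here, to show which genes were held at 1 level from tumour line to tumour line and which were not. They were taken by their label (genotype Wild type) from 13 sequenced lines, and the other 7 lines were not used. Of 23845 genes in the deposited tables, 10562 with a mean of at least 5 CPM over these lines (read counts relative to the scaled library size) were described. All 6 are primary lines from mammary gland tumours of FVBN/J mice, with no agent added that differs between them. Tumour cells were first grown on collagen I in DMEM/F12 with 2% serum, then on ordinary dishes with 10% serum, 20 ng/ml EGF and 10 μg/ml insulin. Total RNA was column-purified with a DNase step and sequenced as 150-base read pairs on a NovaSeq instrument. The lines are titled N20, N47, N75, N300R2, N300L3 and N301. N300R2 and N300L3 share a number in their titles, and the labels do not say whether they came from 1 animal. The labels name no HER2 transgene, promoter, age, passage or batch, so each library stands for 1 line at an unstated passage.

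HER2, encoded by Erbb2, is a receptor tyrosine kinase that signals through the RAS, ERK and PI3K pathways and drives a class of breast cancers. The mammary epithelium has a luminal layer, whose progenitors carry KIT and ELF5 and give rise to milk-secreting alveolar cells, and a basal layer of contractile myoepithelial cells. SOX10 is a transcription factor of neural crest and of mammary stem and progenitor cells. Interferons act through a receptor and transcription factors that bind the interferon-stimulated response element of antiviral genes.

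In what follows, values of a gene are listed in the fixed order N20, N300R2, N301, N300L3, N47 and N75 unless lines are named. Spread is the SD of log2 CPM over the 6 lines, with a prior count of 2. Libraries held 38724715 to 46689811 expected counts, with 12595 to 13305 genes at 10 counts or more. Erbb2 stood at 186, 207, 191, 263, 214 and 235 CPM, the widest ratio between lines being 1.41-fold. Mapk8, for JNK1, stood at 35.1, 24.6, 26.4, 26.5, 38.1 and 31.5 CPM, and Mapk9, for JNK2, at 58, 61.6, 56.5, 58.5, 74.6 and 57.9 CPM, while Mapk10, for JNK3, had at most 0.145 CPM. Every line thus held reads of Erbb2, Mapk8 and Mapk9. Whether reads of a HER2 transgene, if the tumours carried one, are counted in Erbb2 is not known, so its CPM may not give the full HER2 level. The luminal keratin genes Krt8 (2404, 2385, 2282, 2350.3, 1415 and 1743 CPM) and Krt18 (2503, 1989, 1919, 2415, 1651 and 2115 CPM) were high in every line. None of 13 endothelial markers reached the minimum, and they summed to between 6.96 and 12.3 CPM. Of 19 leukocyte markers in the tables, 9 had 0 reads in all lines. All 19 summed to between 5.59 and 56.8 CPM, and without Ikzf1, Cd68 and Csf1r the remaining 16 summed to at most 0.598 CPM in any line. The fibroblast markers other than Gsn and Ly6c1 summed to between 1.37 and 15 CPM. In such bulk samples, fewer cells of a type and less RNA per cell cannot be told apart.

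The lines differed by far more than counting error. The median spread was 0.34 (quartiles 0.23 and 0.55, range 0.03 to 6.23), against a median of 0.035 from counting alone, and the spread was under 1.5 times its counting error for 20 genes. At the thresholds used, 1101 genes (10.4%) were variable, with a spread of at least 1, and 1962 (18.6%) were constant, with a spread of at most 0.2. Map6 and Etv1 lay just inside and just outside the first threshold (both 1.00), Maml3 and Wbp11 about the second (both 0.20), and Zfp3 (5.01 CPM) and Cnr1 (4.995 CPM) about the minimum mean. Variable genes were the less abundant, with a median mean of 19.4 CPM against 60.2 CPM for constant genes, and 336 of them (30.5%) were under 1 CPM in at least 1 line. A gene can reach the minimum mean through 1 line alone, and such a gene had to be variable.

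N75, N47 and N20 were the lines most often highest or lowest for variable genes. In 1097 of the 1101 variable genes the highest or the lowest line was 1 of these 3, and in 720 it was N75. The 3 lines were picked from these values, and any 3 lines would hold an extreme in many genes. Of the 1101 variable genes, N75 was the highest line for 403 and the lowest for 317. Over all genes it was highest for 23.8% and lowest for 27.7%. No matching share of all genes is given for the 1097, and both the 1097 and the 720 are descriptions only. N300R2 was the highest line for 239 variable genes, against 160 for N47 and 114 for N20. It was the lowest for 81, against 229 and 423. The root-mean-square log2 difference was smallest between N300R2 and N301 (0.47) and largest between N20 and N75 (1.60). N300R2 and N300L3, which share a number, differed by 0.75, only the fifth smallest of 15 such differences. N301 was on average nearest to the others (0.84) and N75 farthest (1.28). The first principal component carried 63.1% of the variance and ordered the lines N20, N300R2, N301, N300L3, N47 and N75, the order used for listing values. The second, with 17.5%, set N47 apart. Genes at least 2-fold higher in 1 line than in every other numbered 533 (5.05%), of which 340 were high in N75, 107 in N47, 50 in N300L3, 28 in N300R2, 8 in N20 and 0 in N301. Genes at least 2-fold lower in 1 line than in every other numbered 804 (7.61%), of which 342 were low in N75, 214 in N20, 213 in N47, 19 in N300L3, 14 in N300R2 and 2 in N301. N20 thus stood out by low genes rather than high ones, and N301 hardly by any gene. Over all genes, N20 was highest for 17.0%, N47 for 21.7%, N75 for 23.8%, N300R2 for 13.4%, N300L3 for 13.3% and N301 for 10.8%. The lowest line was N20 for 17.2%, N47 for 19.7%, N75 for 27.7%, N300R2 for 10.1%, N300L3 for 16.3% and N301 for 8.98%. The counts of highest and lowest lines given for gene lists stand against these shares. The numbers depend on the company of lines, since N47 had 317 high and 487 low genes when N75 was left out, and N75 had 571 and 669 without N47.

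**Figure D1:**
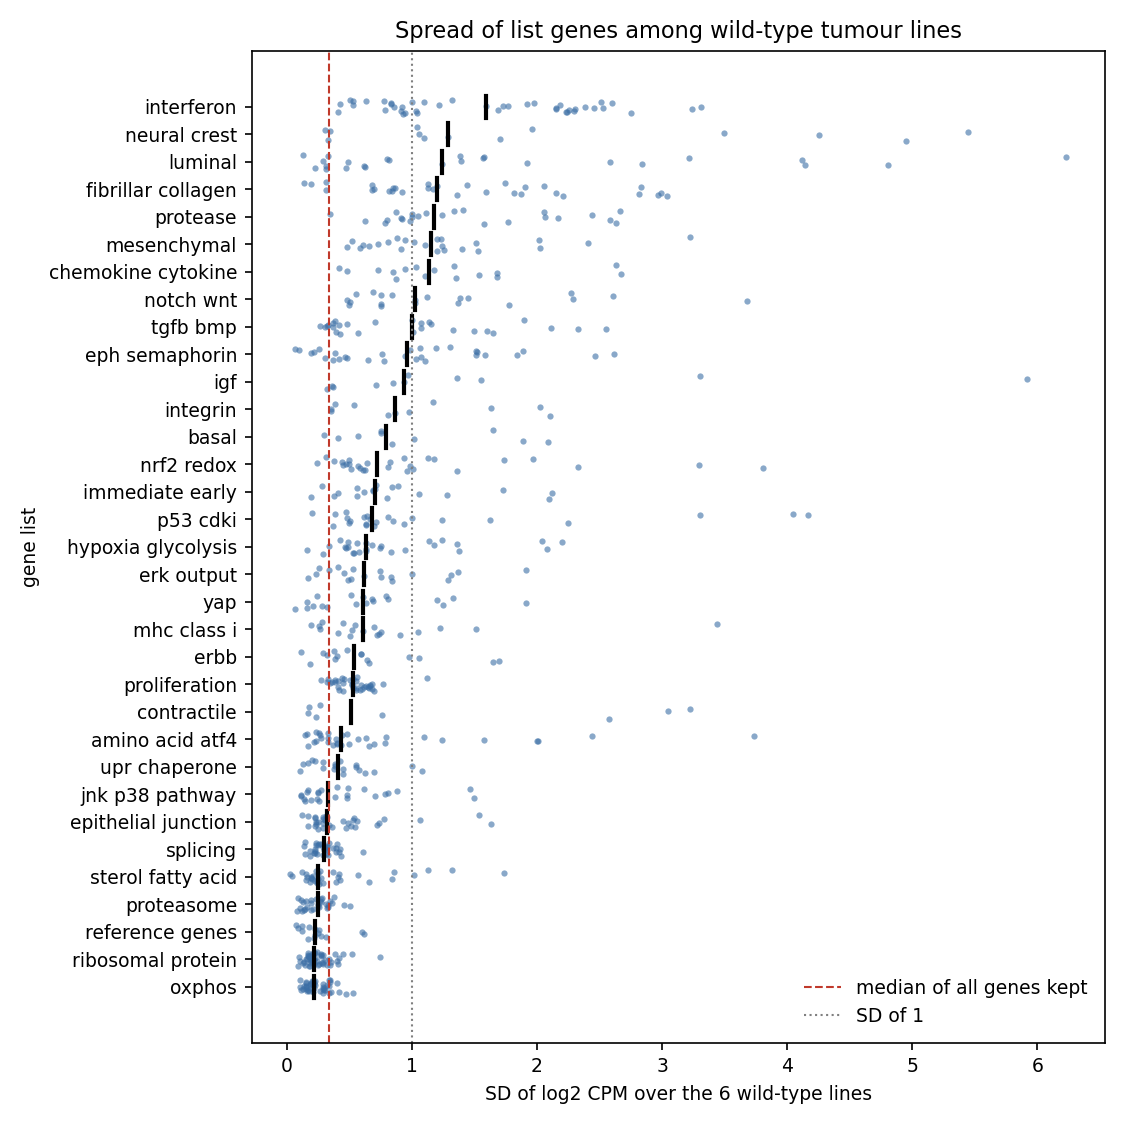
Spread (SD of log2 CPM over the 6 lines, x axis) of each gene with a mean of at least 5 CPM in the lists with at least 5 such genes (y axis). Each dot is a gene and each black bar the list median, with the median of all genes (0.34) dashed and a spread of 1 dotted. Interferon genes have the highest median (1.59), and oxidative phosphorylation and ribosomal protein genes the lowest (both 0.22).

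The most constant gene with a proper symbol was Srebf2, which encodes SREBP2, the master regulator of cholesterol synthesis, at 336, 354, 345, 355, 345 and 346 CPM (spread 0.03). Nearly as constant were Anxa4, for a calcium-dependent membrane-binding annexin, at 236, 231, 232, 226, 219.7 and 230.3 CPM (0.04), and Nap1l4, for a histone chaperone, at 185, 177, 178, 174, 174 and 169 CPM (0.04). Which gene is the most constant depends on the scaling, since the spread of Srebf2 was 0.06 with library size alone and 0.08 on log2(TPM + 1), still far under 0.2. The highest line was 1.06-fold above the lowest for Srebf2 and 1.09-fold for Nap1l4. Dhx16, for an RNA helicase of splicing, and Actr8, for a subunit of the INO80 chromatin remodeller, also had a spread of 0.04. Yap1, the Hippo pathway co-activator, stood at 261, 286, 270.3, 258, 264 and 287 CPM (0.07), and Plxnb1, a semaphorin receptor gene, at 197, 180.5, 180.4, 191, 191 and 199.7 CPM (0.06).

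The 5 housekeeping lists held no variable gene, but not all were rich in constant ones. Of 54 ribosomal protein genes 23 were constant, as were 17 of 45 nuclear genes of oxidative phosphorylation, 13 of 31 proteasome genes and 6 of 15 genes commonly used as references, against 18.6% of all genes. Of 34 splicing genes only 5 were constant (14.7%), under that share. Among the references, Gusb, for the lysosomal enzyme beta-glucuronidase, was the least steady, at 100.4, 85.1, 117, 123, 103 and 38.7 CPM (spread 0.62), lowest in N75. Puf60, a splicing factor gene, was the steadiest at 163, 180.4, 179.9, 171, 185 and 183 CPM (0.07). In the sterol and fatty acid list, 10 of 34 genes were constant (29.4%) and 4 variable (11.8%, near the 10.4% of all genes). The variable ones were highest in N75, and without N75 the list held 1 variable gene. Scd1, for stearoyl-CoA desaturase, stood at 145, 508, 373, 1944, 1898 and 3264 CPM and Srebf1, whose product SREBP1 drives fatty acid synthesis, at 147, 191, 205, 389, 478 and 971 CPM (spreads 1.73 and 1.02). Acss2, for a cytosolic acetyl-CoA synthetase, was at 5.25, 12.4, 7.97, 11.6, 8.25 and 72.8 CPM, and N75 alone stood far above the rest. Srebf1 was thus variable, though only just past the threshold of 1, where Srebf2 was constant.

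The 24 genes with the highest spread mostly ran between N20 and N75, with N75 the highest line for 19 and N20 the lowest for 18. Of these genes 7 belong to the luminal or the neural crest list, which hold 25 and 13 of the 10562 genes described. Over the 1101 variable genes, N75 was the highest line for 403 and N20 the lowest for 423. Sp8, a zinc finger factor gene of limb and forebrain, ran the other way, at 35.5, 17.4, 30.4, 1.94, 0.0478 and 0 CPM (spread 4.26), and Chodl, for the membrane lectin chondrolectin, was lowest in N47, at 36.2, 70.3, 26.9, 13.2, 0 and 0.651 CPM (4.09). Csn3, for the milk protein kappa-casein, had the highest spread of all genes described (6.23), with 0.482, 0.611, 1.77, 138, 1694 and 12072 CPM. Trf, for transferrin, which is also secreted into milk, stood at 0.699, 3.14, 12.5, 463, 1283 and 19016 CPM (5.64). Igfbp5, for an insulin-like growth factor binding protein of the involuting gland, stood at 0, 10.1, 112, 324, 1833 and 2861 CPM (5.91). The 3 genes were near 0 in N20 and above 100 CPM in N300L3, N47 and N75, and N75 was highest for each. For Igfbp5, with 0 reads in N20, N75 was at least 39565-fold higher than a floor of 3 reads. Not every milk protein gene was so high in some line. Wap and Lalba, also of the luminal list, had at most 0.19 and 5.61 CPM in any line and did not reach the minimum mean. High Csn3 and Trf thus do not show a full set of milk genes in any line.

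The regulators followed a similar order of lines. Sox10 stood at 0, 2.35, 45.1, 33.1, 233 and 548 CPM (spread 4.95), from 0 reads in N20 to a level in N75 at least 7577-fold above the floor. Elf5, for an ETS factor required for alveolar cells, stood at 0, 2.19, 52, 23.6, 345 and 214 CPM (4.80), with N47 highest. Kit, for the receptor of luminal progenitors, stood at 0, 0.543, 9.4, 5.38, 22 and 170.1 CPM (4.14), and Tfap2c, for the AP-2 gamma factor, at 0.169, 4.14, 11.6, 43.1, 223 and 562 CPM (4.12). N20 had no read of Sox10, Elf5 or Kit in 40511530 counts, and N300R2 had 2.35 CPM or less of these 3. Hey1, a target of Notch signalling, stood at 0.265, 2.62, 17.8, 34.4, 121 and 329 CPM (3.68). Col9a1, for a chain of type IX collagen, stood at 0, 0.181, 0.826, 4.34, 56.4 and 1368 CPM (5.45), and Mia, a SOX10-associated secreted protein gene, at 0, 0.837, 4.91, 15.9, 48.5 and 165 CPM (4.25). Foxi1, a transcription factor gene of ion-transporting epithelia, stood at 0, 0.113, 12.3, 9.68, 23.8 and 227 CPM (4.63). For these 4 genes too N75 was highest, N47 next and N20 lowest.

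**Figure D2:**
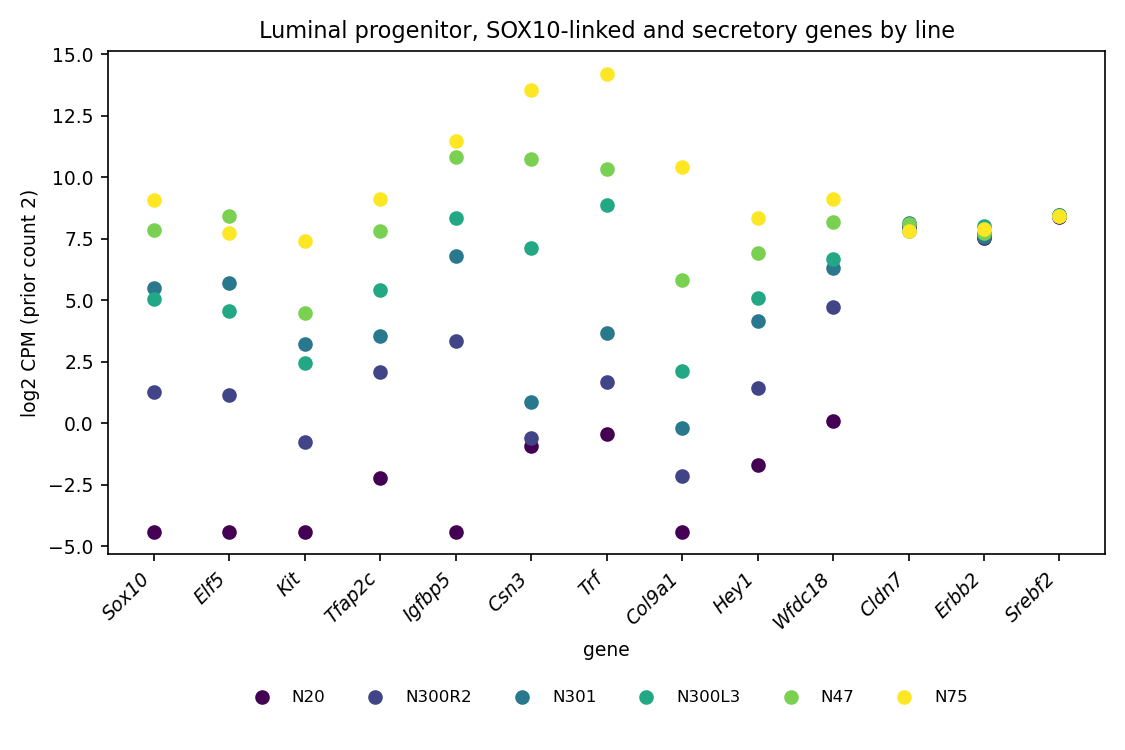
Level (log2 CPM with a prior count of 2, y axis) of 13 genes (x axis) in each of the 6 lines, 1 point per line. The 10 genes at the left run from N20, with 0 reads of Sox10, Elf5, Kit, Igfbp5 and Col9a1, up to N47 and N75, while the points of Cldn7, Erbb2 and Srebf2 nearly coincide.

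By list, 13 of 25 luminal genes kept were variable and 10 of 13 genes of the neural crest list, against 10.4% of all genes, with median spreads of 1.24 and 1.29. Lists and members were chosen with earlier results of these data known. A list's share set against all genes, here and for the other lists, is thus a description only. N20 was the lowest line for 11 of the 25 luminal genes, and N47 or N75 the highest for 16. Wfdc18, for a secreted whey acidic protein family member, stood at 1.01, 26.3, 80.2, 101, 287 and 561 CPM (3.21). Lcn2, for lipocalin 2, an iron-scavenging defence protein, stood at 734, 1195, 693, 2754, 2511 and 12492 CPM (1.57), high in all lines and highest in N75. Not all luminal genes shared this order, since N75 was itself the lowest line for 7 of the 25 and N47 for 3, and 8 of the 25 had a negative r with the mean of the other members. Areg, for the growth factor amphiregulin, stood at 138, 278, 183, 26.9, 176 and 9.46 CPM (1.92), and Cldn4, a tight junction gene, at 704, 899.7, 873, 706, 1167 and 84.8 CPM (1.39), both lowest in N75. Cldn7, another claudin gene, hardly varied and stood at 259.5, 249.6, 281, 229, 276 and 229 CPM (0.13). Across the 6 lines, 99 of 1063 other variable genes had a Pearson r of at least 0.9 with Sox10 and 0 had one of -0.9 or below. The 6 most alike were Lcp1 (r = 0.99), Wfdc18, Lama4, Igfbp5, Elf5 and Rasal1. These r values are a description over 6 libraries that share N20 and N75 as extremes.

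Markers of a basal or contractile state did not move as 1 group. Of 10 basal genes kept, 4 were variable (40%, against 10.4% of all genes). Krt17, a keratin gene of basal and activated epithelium, stood at 5.3, 14.6, 9.94, 8.38, 17.2 and 0.298 CPM (2.09) and Krt16 at 4.31, 6.26, 14.7, 1.65, 7.53 and 0.325 CPM (1.89), both lowest in N75. Itgb4, the beta 4 integrin of hemidesmosomes, was the steadiest at 400.0, 329, 391, 226, 311 and 336 CPM (0.30). Of 8 contractile genes kept, 3 were variable (37.5%, against the same 10.4%). Oxtr, the oxytocin receptor gene, stood at 0.12, 0.43, 1.39, 11, 23.5 and 40.9 CPM (3.23), Lmod1, for the actin nucleator leiomodin 1, at 0.289, 1.18, 2.24, 7.92, 34.1 and 93.1 CPM (3.05), and Acta2, for smooth muscle actin, at 0.482, 0.611, 16.4, 3.7, 1.05 and 39.9 CPM (2.58). N75 was highest for all 3, and Acta2 was low in N47 where the other 2 were high. Tpm1, for tropomyosin, was steady at 562, 542, 555, 656, 729.9 and 624 CPM (0.17).

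Junction genes varied about as much as genes in general. Of 33 epithelial junction genes kept, 3 were variable (9.09%, against 10.4% of all genes) and 3 constant (9.09%, against 18.6%), with a median spread of 0.32, close to the 0.34 of all genes. Lsr, for a protein of tricellular junctions, stood at 197, 211, 175, 187, 219 and 181 CPM (0.13). Of 24 mesenchymal genes kept, 14 were variable (58.3%), but their lines of highest level differed from gene to gene. Vim, for vimentin, stood at 45, 73.6, 538, 193, 176 and 658 CPM (1.53), highest in N75 and N301. Snai2, for the transcription factor SLUG, stood at 12.6, 22.6, 13.9, 4.72, 0.478 and 2.33 CPM (2.02), with N47, N75 and N300L3 below the other 3 lines. Fn1, for fibronectin, stood at 3795, 4903, 4479.6, 4499, 588 and 1326 CPM (1.26), lowest in N47 and N75. Fbln5, for an elastic fibre protein, was instead highest in N47, at 0.771, 11.9, 7.78, 15.9, 367 and 189 CPM (3.22). The mesenchymal score, the mean of its genes after each gene's mean was removed, ranged over only 1.00 log2 unit, against 3.19 for the luminal list.

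Collagen genes were often highest in N75. Of 31 collagen and crosslinking genes kept, 19 were variable (61.3%, against 10.4% of all genes). N75 was the highest line for 16, against 23.8% of all genes. Without N75, 12 were variable. Col1a2, for a chain of type I collagen, stood at 0.482, 0.724, 1.94, 4.47, 12.6 and 161 CPM (3.04), and Col3a1, for type III collagen, at 0.53, 0.113, 0.656, 0.931, 0.454 and 61.8 CPM (2.97). Col3a1 was under 1 CPM in the other 5 lines. Col1a2 and Col3a1 reached the minimum mean only through N75, so both were bound to count among the 16. How many other members did so was not counted. Col11a1, for type XI collagen, was high in both N47 and N75, at 3.35, 36.5, 23, 84, 351 and 1200.0 CPM (2.99), while Serpinh1, for the collagen chaperone HSP47, was steady at 383, 382, 446, 425, 450.0 and 484 CPM (0.14). The summed fibroblast markers were lowest in N75 (57.2 CPM) and highest in N300R2 (577 CPM), most of it Gsn, a gelsolin gene that epithelial cells also use. Their part in the collagen levels was not tested.

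Interferon response genes had the highest median spread of the lists (1.59), and 28 of 43 genes kept were variable, against 10.4% of all genes. They moved as 1 group in another order of lines from the luminal genes. Usp18, for the protease that removes ISG15 and restrains the receptor, stood at 31, 136, 92.9, 23.4, 0.502 and 1.11 CPM (3.31). Oas3, for a sensor of double-stranded RNA, stood at 5.42, 92.5, 23.2, 6.45, 0.239 and 0.38 CPM (3.24), and Irf7, the factor that amplifies interferon production, at 23.1, 246, 98.7, 20.3, 0.956 and 10.3 CPM (2.75). N300R2 was highest and N301 next for all 3, and N47 was lowest. In 41 of the 43 genes both N300R2 and N301 lay above the other 4 lines, which held for 9.77% of all genes. N300R2 was the highest line for 40 of the 43, and N47 the lowest for 35 and N75 for the other 8. For 32 of the 43, r with the mean of the other members was at least 0.9. Irf1, a target of interferon gamma, was the steadiest of the list at 42.3, 48.5, 51.3, 58.7, 25.8 and 45.9 CPM (0.41).

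The upstream sequences of 3 of these genes are shown because their members had the widest spread among those with 1 start-site window and a match to the core of the interferon-stimulated response element. Each runs 5′ to 3′ over the 250 bases before the RefSeq start site (GRCm38.p6), with matches to GAAANNGAAA, or TTTCNNTTTC on the other strand, in capitals. Oas3 lies on the minus strand at chr5:120777660-120777909, Rsad2, for the antiviral protein viperin, on the minus strand at chr12:26456453-26456702, and Ifit3, for an RNA-binding antiviral protein, on the plus strand at chr19:34583279-34583528.
Oas3: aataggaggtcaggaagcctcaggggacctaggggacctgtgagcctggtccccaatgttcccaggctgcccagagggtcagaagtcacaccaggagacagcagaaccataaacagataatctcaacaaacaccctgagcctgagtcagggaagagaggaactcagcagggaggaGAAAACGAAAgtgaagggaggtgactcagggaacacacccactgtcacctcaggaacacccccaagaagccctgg
Rsad2: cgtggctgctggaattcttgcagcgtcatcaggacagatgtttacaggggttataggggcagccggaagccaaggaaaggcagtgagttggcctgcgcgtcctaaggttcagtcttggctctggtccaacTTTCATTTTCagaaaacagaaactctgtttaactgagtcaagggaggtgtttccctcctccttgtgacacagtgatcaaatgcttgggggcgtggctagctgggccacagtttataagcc
Ifit3: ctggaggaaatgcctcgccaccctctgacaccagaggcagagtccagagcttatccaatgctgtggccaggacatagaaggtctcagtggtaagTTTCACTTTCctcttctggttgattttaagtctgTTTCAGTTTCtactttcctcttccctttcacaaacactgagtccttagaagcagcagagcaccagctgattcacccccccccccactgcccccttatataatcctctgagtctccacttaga
Oas3 and Rsad2 held 1 match each and Ifit3 held 2. Their levels were alike in order, with Rsad2 at 2.63, 41.9, 16.5, 4.39, 0.55 and 0.488 CPM (2.53) and Ifit3 at 2.51, 24, 15, 2.79, 0.335 and 0.841 CPM (2.30). In windows reaching 50 bases past the start site, this core was found for 17 of 34 interferon genes with a window (50%) and 4 of 16 class I presentation genes (25%), against 3.48% of the 8507 genes kept that have one. Of the 17 genes with a match 11 were variable, with a median spread of 1.92, and of the 17 without 11 were variable, with a median spread of 1.10. A match describes letters only and shows no binding. Reads of the Ifit3, Oas1 and Trim30 families are shared among near-identical copies by the counting model, so levels of single members are uncertain.

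**Figure D3:**
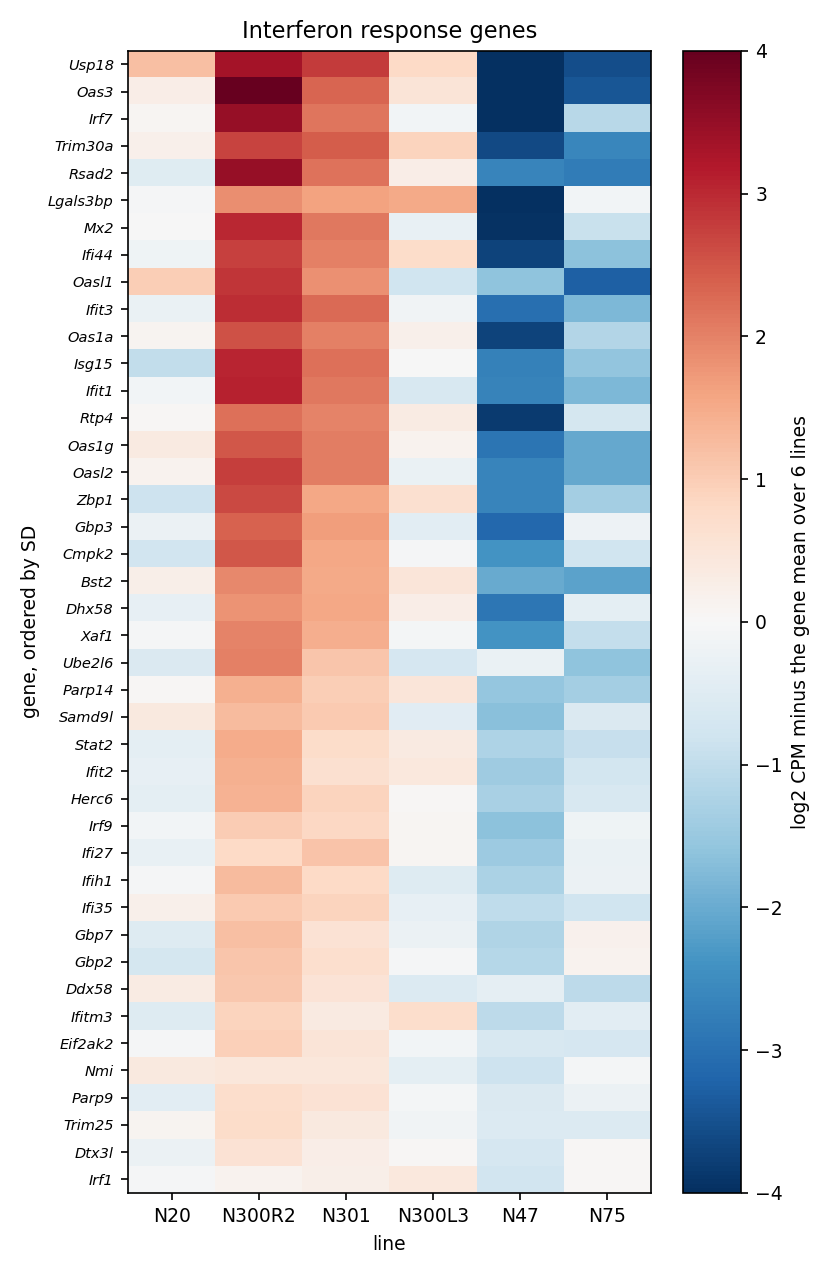
Log2 CPM minus the gene's mean over the 6 lines (colour, limited to -4 to 4) for all but 1 of the 43 interferon response genes kept (y axis, by falling spread) in each line (x axis). Over the 43 genes, N300R2 and N301 are above the other 4 lines in 41, and N47 or N75 is the lowest line in all.

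Class I antigen presentation genes followed the interferon order more weakly. Of 19 kept, 4 were variable (21.1%, against 10.4% of all genes), and 2 without N47. Nlrc5, the transactivator of class I genes, stood at 4.39, 25.7, 8.87, 8.79, 0.0717 and 0.0542 CPM (3.44), Psmb8, for an immunoproteasome subunit, at 17.4, 115, 71.9, 73.4, 7.39 and 24.8 CPM (1.51), and Tap1, for the peptide transporter, at 43.4, 95.3, 75.9, 32.5, 15.3 and 19.1 CPM (1.05). N300R2 was highest for the 3 genes, and N47 and N75 were the lowest for Nlrc5 and Tap1. Erap1, for the peptide-trimming aminopeptidase, departed from this with 72, 66.2, 67.1, 67.4, 75.9 and 93.6 CPM (0.19). The classical class I genes are near-identical to one another, and their single levels are uncertain. Chemokine and cytokine genes were also often highest in N300R2 (9 of 16) and lowest in N75 (10 of 16). Ccl2, a monocyte attractant gene, stood at 6.92, 34.6, 13.6, 1.57, 0.382 and 0.353 CPM (2.68), and Tslp, an epithelial alarmin gene, at 23.5, 108, 13.8, 16.1, 1.79 and 0.651 CPM (2.64).

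Genes of ERK output differed among themselves. Of 19 kept, 4 were variable (21.1%, against 10.4% of all genes), and 1 without N75. N75 was the highest line for 10 and the lowest for 3, against 23.8% and 27.7% of all genes, and 6 had a negative r with the mean of the other members. Etv5, for a PEA3 family factor, stood at 101, 96.6, 118, 165, 265 and 1174 CPM (1.37), Dusp6, for the ERK phosphatase, at 122, 174, 125, 224, 435 and 1299 CPM (1.32), and Spry4, a Sprouty inhibitor gene, at 6.63, 10.6, 7.1, 6.41, 11.1 and 67.5 CPM (1.29). N75 lay above the other 5 lines for the 3 genes. Fosl1, for the AP-1 factor FRA1, went the other way at 75.9, 72.8, 50.9, 20.2, 10.0 and 2.58 CPM (1.91), lowest in N75. Spred2, another ERK inhibitor gene, was steady at 54.7, 54.8, 47.6, 47.5, 41.3 and 55.6 CPM (0.17). Glycolysis and hypoxia genes also stood highest in N75 (22 of 28, against 23.8% of all genes) and lowest in N20 (21 of 28, against 17.2%). Of the 28, 8 were variable (28.6%, against 10.4% of all genes), and 2 without N75. Aldoc, for an aldolase, stood at 17.1, 36.9, 24.9, 86, 79.5 and 962 CPM (2.08), Pfkp, for phosphofructokinase, at 35.3, 36.3, 50.5, 44.7, 139.7 and 384 CPM (1.38), and Adm, for the hypoxia-induced peptide adrenomedullin, at 0.554, 6.24, 1.36, 4.47, 12.6 and 42.7 CPM (2.20). In the JNK and p38 list 2 of 24 genes were variable (8.33%), near the 10.4% of all genes, and 7 were constant (29.2%, against 18.6%). Mapk12, for p38 gamma, stood at 13.5, 21.9, 19.3, 16.2, 4.14 and 1.6 CPM (1.49) and Dusp10, for a phosphatase of JNK and p38, at 33.9, 29.1, 20.3, 16.3, 8.75 and 2.14 CPM (1.46), both lowest in N75, and without N75 none of the list was variable.

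The list of YAP and TEAD factors and their targets held 4 variable genes of 19 (21.1%, against 10.4% of all genes), and 2 without N75. N75 was the lowest line for 10 of them and the highest for 2, against 27.7% and 23.8% of all genes, and 5 had a negative r with the mean of the other members. Ankrd1, a direct YAP target, stood at 290.1, 344, 133, 149, 54.8 and 9.55 CPM (1.91), lowest in N75, while Yap1 itself was constant. Fst, for the activin inhibitor follistatin, stood at 416, 420.0, 293, 128, 43.6 and 6.92 CPM (2.33). In the TGF-beta and BMP list 14 of 27 genes were variable (51.9%, against 10.4% of all genes), and 7 without N75. Of 28 genes of the NRF2 and glutathione list kept, 9 were variable (32.1%, against 10.4% of all genes). N300R2 was the highest line for 13 and the lowest for 0, against 13.4% and 10.1% of all genes. The list score was 0.65, 0.50 and 0.34 in N300R2, N301 and N300L3, and -0.42, -0.56 and -0.51 in N20, N47 and N75. In this list, 4 genes had a negative r with the mean of the other members. Gsta1, for a glutathione transferase with near-identical copies, stood at 6.99, 65.9, 26.6, 6.06, 0.621 and 0 CPM (3.81), highest in N300R2, and Gpx2, for a glutathione peroxidase, at 0.0482, 3.44, 15.8, 8.0, 49.1 and 36 CPM (3.29), highest in N47. Slc7a11, the cystine transporter gene, stood at 17.6, 133, 28.2, 31.6, 5.5 and 10.3 CPM (1.58), 4.22-fold higher in N300R2 than in the next line.

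Proliferation genes moved together. Of 37 kept, 1 was variable (2.70%, against 10.4% of all genes) and 0 were constant (against 18.6%). Their median spread of 0.53 lay above the 0.34 of all genes and near the upper quartile, and for 26 of 37 r with the mean of the other members was at least 0.9. N300L3 was the lowest line for 35 of the 37, and N20 or N47 the highest for 33. Mki67, the Ki-67 gene, stood at 299, 139, 155, 106, 329.6 and 291 CPM (0.69), Ccne2, for cyclin E2, at 22, 14.8, 14.3, 2.94, 27.4 and 12.3 CPM (1.12), and Pcna, the replication clamp gene, at 312, 327, 358, 209, 329 and 291 CPM (0.27). The levels of Mki67 fell in a higher set of N20, N47 and N75 and a lower set of the other 3 lines, an order that Pcna did not share.

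The Cdkn2a locus on chromosome 4 was nearly without reads in N47. Cdkn2a, which encodes the inhibitors p16INK4a and p19ARF, had 2 reads in N47 and Cdkn2b, for p15INK4b, had 0. Cdkn2b stood at 47, 73.7, 54.6, 77.8, 0 and 24.4 CPM and Cdkn2a at 23.4, 41.1, 35.3, 12.4, 0.0478 and 14.9 CPM. Against a floor of 3 reads, Cdkn2b was at least 340-fold lower in N47 than in the lowest other line. Mtap, for the methionine salvage enzyme next to them, had 5 reads in N47, with 184, 241, 210.0, 106, 0.12 and 59.8 CPM by line, and Klhl9, for a ubiquitin ligase adaptor, had 0, at least 911-fold lower, with 77.7, 65.3, 69.9, 72.5, 0 and 90.1 CPM. These 4 genes lie between 88718292 and 89311032 on chromosome 4 (GRCm38), and Focad, the next gene before them that was kept, had 604 reads in N47. Focad, for focadhesin, stood at 39.9, 39.1, 36.7, 14.1, 14.4 and 14.9 CPM, and Rps6, for a ribosomal protein further on the same side, at 1825, 1509, 1724, 643, 636 and 715 CPM (0.74). For both, N47, N75 and N300L3 were the 3 lowest lines, with no overlap with the other 3.

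That order extended over the part of chromosome 4 before Cdkn2a. This 3-line order and the intervals were chosen after the values were seen. N47, N75 and N300L3 were all below the other 3 lines for 1841 of all genes described (17.4%). In the 60 Mb before Cdkn2a this was so for 111 of 173 genes (64.2%), and from its start onward for 67 of 421 genes (15.9%). In the interval from 60 to 30 Mb before Cdkn2a, the median log2 deviation from the gene mean was -0.40 in N47, -0.44 in N75 and -0.48 in N300L3, and 0.45, 0.49 and 0.30 in N20, N300R2 and N301. Farther out, between 90 and 60 Mb before, N47 was at 0.46 while N75 stayed at -0.49 and N300L3 at -0.71. N20, N300R2 and N301 were at 0.40, 0.29 and 0.09 there. N47 thus stood above the gene mean farther out and below it nearer, while N75 and N300L3 were below it in both intervals. No start of the lower level is shown for N75 and N300L3. In the first 10 Mb from Cdkn2a onward, the medians of N47, N75 and N300L3 were 0.08, 0.24 and 0.06. Deviations are relative to the mean of all lines, so lower in 3 lines cannot be told from higher in the other 3. DNA copy number was not measured.

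**Figure D4:**
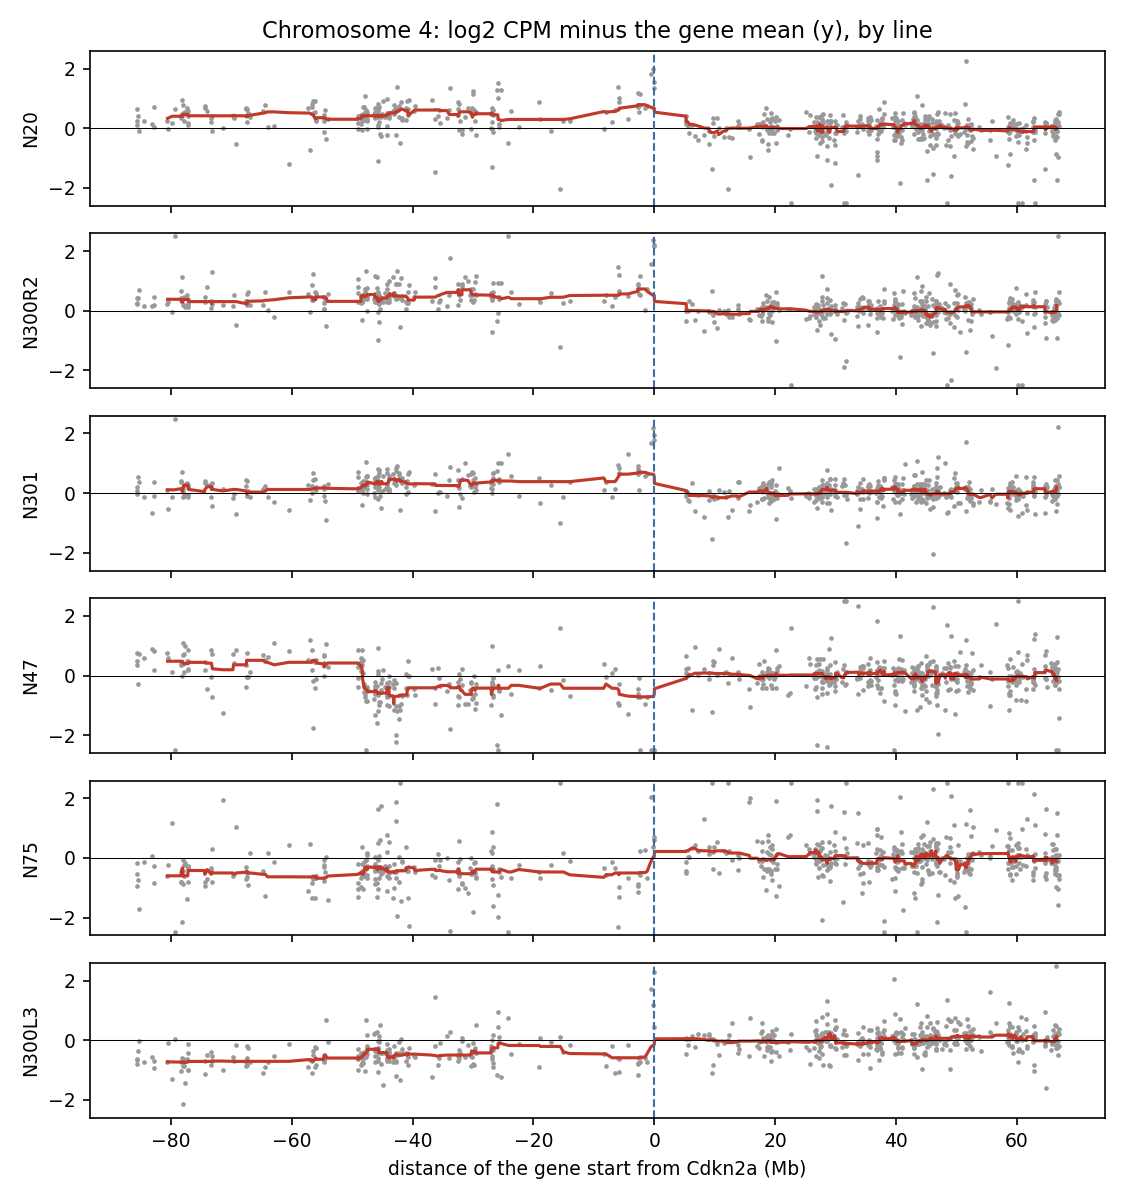
Log2 CPM minus the gene mean over the 6 lines (y axis, points limited to -2.5 to 2.5) for the genes of chromosome 4 against the distance of their start from Cdkn2a in Mb (x axis, dashed line at 0), 1 panel per line. The red line is a running median of 21 genes; before Cdkn2a it lies below 0 in N75 and N300L3 and over part of that stretch in N47, and near 0 after it in all lines.

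Shifts were not limited to chromosome 4, and some were larger. Chromosome 2 had the 3-line order in 316 of 854 genes (37.0%) and chromosome 16 in 86 of 339 (25.4%). The median deviation of chromosome 5 was 0.34 in N47 and between -0.15 and -0.03 in the other lines. Running medians of 21 genes reached 1.10 in N47 on chromosome 1, centred on 2310035C23Rik, and 0.95 on chromosome 14, centred on Uchl3. Rps6 and Rps20, both on the part of chromosome 4 before Cdkn2a, had the highest spread of all 54 ribosomal protein genes (0.74 and 0.53), with Rps20 at 596, 611, 655, 349, 374 and 273 CPM. Rpl4, on another chromosome, had the lowest, at 1826, 1615, 1908, 1758, 1674 and 1786 CPM (0.09).

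Some genes set a single line apart. Klk6, a kallikrein protease gene, stood at 0.651, 2.65, 10.9, 0.993, 524 and 11.9 CPM (3.47) and Mgam, for a maltase-glucoamylase, at 1.52, 14.7, 50.8, 29.1, 608 and 24.9 CPM (2.78), both highest in N47 by a wide margin. Ctsz, for cathepsin Z, was instead low in N47 alone, at 40.5, 47.1, 77.5, 16.7, 0.0956 and 18.4 CPM. N75 stood apart for Apod, for apolipoprotein D, at 39.8 CPM against at most 0.145 CPM elsewhere, and A2m, for the protease inhibitor alpha-2-macroglobulin, at 88.2 CPM against at most 1.24 CPM. N75 alone lacked Foxj1, a factor of ciliated cells, with 19.3, 11.9, 21.7, 46.7, 15.2 and 0 CPM, and nearly lacked Gvin1, an interferon-inducible GTPase gene with close copies, with 472, 874, 451, 346, 263 and 4.85 CPM. The Hox genes Hoxb2 and Hoxb3, which set position along the body axis, stood at 20.2, 16.4, 19.7, 18.3, 15.9 and 1.0 CPM and 22.1, 20.1, 25.9, 27.8, 22.1 and 1.49 CPM, and the 3 Hox genes kept were all low in N75. Cbs, for cystathionine beta-synthase, at 2.31, 3.93, 5.01, 90.7, 9.13 and 2.14 CPM, and Grb10, an imprinted adaptor gene of insulin signalling, at 0.169, 17.2, 18.5, 144, 8.34 and 3.99 CPM, were highest in N300L3. Crip2, a LIM domain gene, was low there alone, at 214, 116, 201, 15.6, 132 and 222 CPM. N20 was highest for Parvb, for beta-parvin of focal adhesions, at 91.5, 17, 11.8, 0.869, 0.191 and 1.9 CPM (3.14). Mmp9, for gelatinase B, stood at 29.8, 0.633, 2.5, 0.352, 9.61 and 0.298 CPM (2.64), also highest in N20. Ikzf1, usually a lymphoid factor gene, stood at 0, 0.136, 3.55, 4.41, 28.5 and 53.7 CPM (4.0) with N75 highest, N47 next and N20 lowest. Of the other leukocyte markers, Cd68, a macrophage lysosomal gene that other cells also use, stood at 4.99, 8.82, 9.62, 19, 8.01 and 2.17 CPM and Csf1r at 0.313, 0.0452, 1.17, 0.145, 6.45 and 0.542 CPM, in other orders of lines, and the remaining 16 summed to at most 0.598 CPM. The part of leukocytes in the level of Ikzf1 was not tested.

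Which programmes vary together was examined over scores of 16 lists, giving 120 pairs. With 6 lines an exact two-sided permutation test over 720 pairings cannot give p below 0.00139. After Benjamini-Hochberg adjustment over the pairs the smallest value was 0.167, so 0 pairs passed, while 20 had an unadjusted exact p under 0.05. Interferon and class I presentation scores went together with r = 0.96 and rho = 1 (exact permutation p = 0.00139 for r and 0.00278 for rho, adjusted 0.167 and 0.333). The r was 0.86 without N47 and N300R2, the 2 lines farthest from the median of the first score named. Luminal and contractile scores had r = 0.93 and rho = 0.94 (exact permutation p = 0.0111 and 0.0167, adjusted 0.25 and 0.333), and r = 0.98 without N20 and N47. The contractile score is the mean of 8 genes, of which 3 were variable.

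Of the 20 pairs with an unadjusted p under 0.05, 4 kept an r of at least 0.8 in size without 2 lines. Another 8 fell under 0.6. The 2 lines were those farthest from the median of the first score of each pair. Lines farthest on the second score were not left out in turn, so these counts depend on the order of the scores. Contractile scores and chaperone scores of the unfolded protein response had r = 0.89 and rho = 0.94 (exact permutation p = 0.0125 and 0.0167, adjusted 0.25 and 0.333), and r = 0.89 without N20 and N75. ERK output and sterol scores had r = 0.88 and rho = 0.94 (exact permutation p = 0.025 and 0.0167, adjusted 0.25 and 0.333), and r = 0.84 without the same lines.

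Other associations were weaker without the extreme lines. ERK output and hypoxia or glycolysis scores had r = 0.93 and rho = 0.77 (exact permutation p = 0.0181 and 0.103, adjusted 0.25 and 0.385), but r = 0.43 without N20 and N75. Collagen and contractile scores had r = 0.93 and rho = 0.83 (exact permutation p = 0.0139 and 0.0583, adjusted 0.25 and 0.385), and r = 0.71 without N20 and N75. Hypoxia or glycolysis and chaperone scores had r = 0.92 and rho = 0.83 (exact permutation p = 0.0125 and 0.0583, adjusted 0.25 and 0.385), and r = 0.77 without N20 and N75. Luminal and oxidative phosphorylation scores had r = 0.88 and rho = 0.94 (exact permutation p = 0.0181 and 0.0167, adjusted 0.25 and 0.333), but r = 0.54 without N20 and N47. Basal and chaperone scores had r = -0.92 and rho = -0.89 (exact permutation p = 0.0236 and 0.0333, adjusted 0.25 and 0.364), but r = -0.49 without N75 and N300R2. If N300R2 and N300L3 came from 1 animal, n would be 5 rather than 6.

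**Figure D5:**
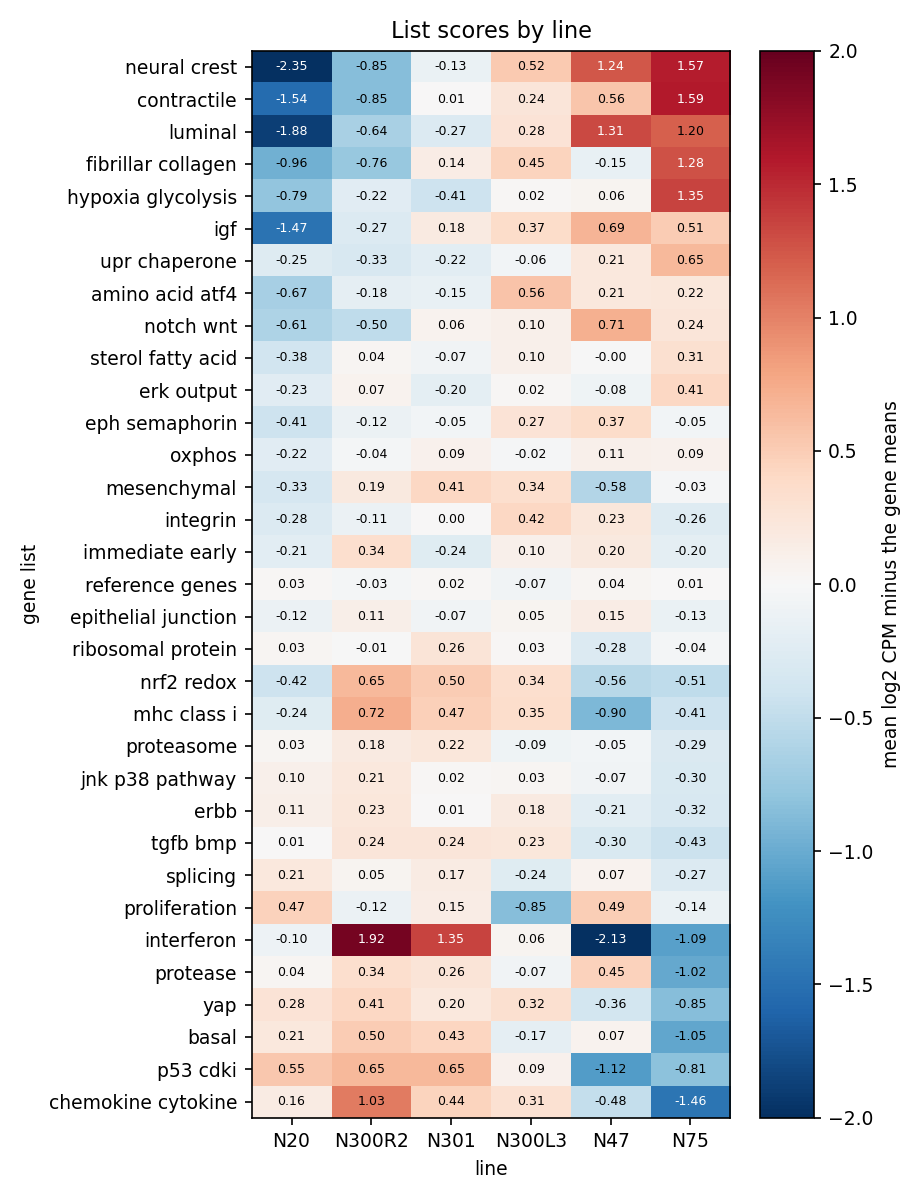
Score of each list with at least 5 genes kept (y axis) in each line (x axis), as the mean log2 CPM after each gene's mean over the 6 lines was removed (printed in each cell, colour limited to -2 to 2). The luminal score is lowest in N20 (-1.88) and highest in N47 (1.31), with N75 at 1.2, while the interferon score peaks in N300R2 (1.92) and is lowest in N47 (-2.13).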

How the data were processed

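The authors deposited expected counts per gene, estimated by RSEM from reads that cutadapt had trimmed. Both tools and the builds mm10 and GRCm38 are named per the submitters' processing notes. TPM values of the same genes were deposited too, and served as an alternative. For the aligner, the annotation, the strand setting and all versions, the sources used here give nothing. RSEM shares reads among near-identical genes, whose levels are uncertain.

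Expected counts were rounded to whole numbers (4.51% were not whole), and libraries scaled by TMM over the 6 lines (edgeR 4.0.16, R 4.3.3). Log2 CPM used a prior count of 2. Depth gave a median counting SD of 0.035 on the log2 scale, which covers counting error only. No model with groups was fitted: SDs over lines are descriptions, and scores of 16 of 40 gene lists were correlated with exact permutation p-values. Replicates are lines, 2 of which may share an animal. The permutation treats all 6 as separate, so p-values may be too small. Genes were named by a rule. It took Erbb2, Xist and the JNK genes, the 24 highest and 15 lowest SDs, the 5 largest gaps above and below per line, and up to 4 highest and the 1 lowest SD per list, without predicted genes. Krt8, Krt18, Areg, Cldn4, Cd68, Csf1r, Fn1, Vim, Lcn2, Wfdc18, Wap, Lalba, Rsad2, Ifit3, Focad and genes named only as neighbours of a threshold, a locus or Sox10 were chosen after their values were seen. Some genes that the rule takes are not reported here. The members and lists were chosen with earlier results of these data known. Positions were found by symbol for 10535 of 10562 genes in RefSeq (GRCm38.p6). The spread calculation was tested on simulated data. Alternatives were library size or DESeq2 1.42.0 size factors, other prior counts, filters and thresholds, log2(TPM + 1), the median absolute deviation, each line left out, and N300R2 and N300L3 averaged. The 7 other lines were left out.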

Additional observations from a re-analysis of the deposited data

Results flagged for a closer look

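Of 156 values checked (114 genes named in the text, 20 list scores, 20 chromosome medians, the total count and the mean distance), 21 had 1 line far from the other 5, by the gap to its nearest neighbour as a share of the whole range. Chance gives this for about 1 in 20 values, and genes were partly named for such gaps, so the number itself is no finding. The limit for 6 lines is 0.625.

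N75 stood apart for 11 genes. It was the highest line for Col3a1 (gap ratio 0.696), Spry4 (0.767), Acss2 (0.673) and Apod (0.792). It was the lowest for Krt17 (0.701), Cldn4 (0.807), Foxj1 (0.802), Gvin1 (0.769), Hoxb2 (0.920), Hoxb3 (0.888) and Gusb (0.682). N47 stood apart for 6 genes and 2 chromosomes. It was the lowest line for Klhl9 (0.957), Mtap (0.808), Cdkn2a (0.803), Cdkn2b (0.844) and Ctsz (0.756), and the highest for Mapk9 (0.689) and for the medians of chromosome 1 (0.647) and chromosome 5 (0.749). N300L3 was the lowest line for Ccne2 (0.642) and Crip2 (0.754). No list score, total count or mean distance was so far from the rest.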

How the results depend on the processing

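Counts of genes followed the filter and the threshold. With a mean of at least 1 CPM, at least 20 CPM or no filter beyond 1 read, variable genes numbered 1882, 540 and 3345, genes high in 1 line 931, 282 and 2386, and genes low in 1 line 1251, 431 and 1735, where fewer or more genes entered. An SD threshold of 0.75 or 1.5 gave 1659 or 577 variable genes, and one of 0.15 or 0.25 gave 877 or 3259 constant genes. Scaling mattered little: against TMM, library size alone shifted all genes by between -0.07 and 0.05 (log2) per line and gave 1105 variable genes, and DESeq2 size factors gave 1100. On log2(TPM + 1) there were 878, N20 and N75 differed by 1.25 rather than 1.60, and genes low in N20 alone numbered 82 rather than 214. Leaving out each line gave 735 (without N75) to 1225 variable and 1836 to 2840 constant genes. The spread of a named gene moved by over 1.5 times for 22 of 108 genes without N75 and 13 of 113 without N47. Averaging N300R2 and N300L3 gave 1112 variable genes. The 3-line order held for 1471 to 2318 genes in all and for 76 to 111 in the 60 Mb before Cdkn2a, under alternatives added after the data were seen. The association of basal and chaperone scores fell to r = -0.53 at a mean of at least 20 CPM, and that of collagen and contractile scores to 0.60 without N75. No p was computed for 5 lines. No paired analysis was possible because the labels pair no lines and 1 group was described. Genes with few reads in a line are limited by depth.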
